A study of Mus musculus with 34 samples.

Results

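The distal HDAC3-only sites are the places in the mouse liver genome where the corepressor enzyme HDAC3 was mapped away from gene starts and without the homeodomain factor PROX1. They were selected from the deposited peak lists on measured binding: an HDAC3 peak was a member when less than 50% of its length was covered by a PROX1 peak and its centre lay more than 1 kb from every transcription start site (TSS) of a protein-coding gene. The rule left 952 of the 21247 HDAC3 peaks, or 4.48%. The other HDAC3-only peaks are 256 promoter sites, and the comparison classes are 18084 distal peaks shared by both factors (co-bound) and 6721 distal PROX1-only peaks.

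Chromatin immunoprecipitation and sequencing (ChIP-seq) had been performed on livers of male C57B/6 mice aged 10 weeks, collected at zeitgeber time 10, late in the light phase. The HDAC3 and PROX1 lists each stand for 3 pooled libraries of livers labelled Control, for which the labels give no genotype or injection. The HNF4α list stands for 2 libraries labelled HNF4A floxed, which per the study's methods come from Hnf4α fl/fl mice given AAV8 TBG Egfp, a virus that expresses a reporter from a hepatocyte promoter and leaves the floxed gene whole. HNF4α was thus mapped in other animals than HDAC3 and PROX1, and all 3 come from whole liver, so that a peak of a rarer liver cell type cannot be told apart from one of hepatocytes. Since each list is pooled, the spread between livers could not be computed, and the tests below compare groups of peaks, which are not independent replicates and can lie next to each other.

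HDAC3 is a histone deacetylase that works within corepressor complexes such as that of NCoR and does not bind DNA by itself. In liver it is brought to chromatin by nuclear receptors, among them Rev-erbα, a repressor of the circadian clock that peaks late in the day. Rev-erbα binds as a single molecule to the RORE, an AGGTCA half-site preceded by an A- and T-rich stretch. It binds as a pair to the DR2, which consists of 2 half-sites in the same direction with 2 bases between them. The search for the DR2 below set no condition on the bases before the first half-site. A match therefore does not show which nuclear receptor binds there. HNF4α and the C/EBP factors are activators that define the hepatocyte state, and HNF4α binds a related direct repeat with 1 base between its half-sites.

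The sequences of DR2 sites are given first, because the results turn on this element. The first 10 members in genome order whose 200 bp window holds 2 half-sites AGGTCA or GGGTCA at that spacing without a mismatch are shown, each as the strand on which the element reads forward (mm9, plus or minus in brackets) and with 20 bases to either side. Capitals mark the element, and each line is headed by the gene with the nearest TSS.
Gpatch2 chr1:189138575-189138588 (-): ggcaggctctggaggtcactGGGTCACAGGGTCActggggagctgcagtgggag
Kcnh1 chr1:194347241-194347254 (+): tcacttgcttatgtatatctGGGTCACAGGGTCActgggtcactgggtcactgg
Olfr62 chr4:118330560-118330573 (+): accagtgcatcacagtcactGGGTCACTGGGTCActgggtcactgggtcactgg
Ubr4 chr4:138956725-138956738 (+): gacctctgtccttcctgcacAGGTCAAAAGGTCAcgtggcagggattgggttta
H6pd chr4:149395106-149395119 (+): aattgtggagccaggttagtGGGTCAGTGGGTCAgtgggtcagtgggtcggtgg
Pitpnb chr5:111765140-111765153 (-): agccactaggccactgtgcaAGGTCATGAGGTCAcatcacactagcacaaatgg
2410131K14Rik chr5:118742294-118742307 (-): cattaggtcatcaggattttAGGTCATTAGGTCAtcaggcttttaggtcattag
B130024G19Rik chr7:77675378-77675391 (-): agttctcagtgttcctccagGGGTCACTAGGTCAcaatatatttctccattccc
Xpo6 chr7:133374463-133374476 (-): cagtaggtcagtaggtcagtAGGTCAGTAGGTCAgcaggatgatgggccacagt
Tubgcp3 chr8:12646737-12646750 (+): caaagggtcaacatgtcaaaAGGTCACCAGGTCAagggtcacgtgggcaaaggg
All of them hold the direct repeat because they were chosen for it. The bases around it mostly differ, but the 20 bases after the element are the same at Kcnh1 and Olfr62. In several of the sequences the half-sites continue beyond the element. At the sites near Kcnh1, Olfr62, H6pd and Xpo6 they form a tandem repeat with a unit of 8 bp, which puts every half-site 2 bases from the next, and the Olfr62 window holds 7 exact half-sites. The site near 2410131K14Rik repeats with a unit of 24 bp and holds 6 half-sites. The sites near Gpatch2, Ubr4, Pitpnb, B130024G19Rik and Tubgcp3 did not meet the tandem repeat measure defined below. Even so, the Gpatch2 window held 4 half-sites, with 1 of them 2 bases before the element, and the Tubgcp3 window held 6. The Ubr4 site, in an intron of a ubiquitin ligase gene, was the one of the 10 covered by an HNF4α peak, with a score of 23.6.

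The windows of members near clock genes are shown next, because these genes are classical Rev-erbα targets. Arntl encodes BMAL1, the central activator of the clock, and Npas2 encodes a partner of BMAL1. The plus strand of the whole 200 bp peak is given, and capitals mark the RORE in both windows and, before it in Npas2, a C/EBP match (TTGCNNAA).
Npas2 chr1:39345329-39345528 (+): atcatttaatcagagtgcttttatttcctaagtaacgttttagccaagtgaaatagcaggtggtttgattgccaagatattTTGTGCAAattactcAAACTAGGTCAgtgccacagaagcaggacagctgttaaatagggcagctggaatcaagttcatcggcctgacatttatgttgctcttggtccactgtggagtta
Arntl chr7:120394381-120394580 (+): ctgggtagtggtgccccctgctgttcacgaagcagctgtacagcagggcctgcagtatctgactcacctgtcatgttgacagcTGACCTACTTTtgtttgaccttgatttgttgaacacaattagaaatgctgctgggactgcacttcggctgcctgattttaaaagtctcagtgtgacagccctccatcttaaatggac
The Npas2 site lies in an intron, 53.0 kb before the nearest annotated TSS of that gene, with the RORE on the plus strand starting at base 97 of the window. The Arntl site lies in an intron 43.5 kb downstream of the nearest TSS, with the RORE on the minus strand starting at base 84. A further member follows it in Arntl, at chr7:120394710-120394909, whose window holds neither a RORE nor a DR2. None of these 3 sites was covered by an HNF4α peak, and the nearest PROX1 peak centres were 29.5 kb away at Npas2 and 9.87 and 9.54 kb away at Arntl. Of 22 clock genes listed, Arntl and Npas2 were the ones nearest to a member (9.09%, against 3.41% of all protein-coding genes). Of the same 22 genes, 18 were the nearest gene of a distal co-bound site (81.8%, against 25.3% of all protein-coding genes).

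The members were spread over the genome much like the co-bound sites. Of the 952 sites, 478 were in introns, 443 between genes and 31 in exons, of which 20 were in untranslated and 5 in coding parts. The intronic share was 50.2% (95% CI 47.0 to 53.4) against 49.8% at distal co-bound sites, a difference of 0.38 percentage points (95% CI -2.87 to 3.63, p = 0.82 in a two-sided Pearson's chi-square test), and its sign was positive on 10 of 20 chromosomes and negative on 10. The confidence intervals given here cover counting error over peaks only. The median distance to a TSS was 16.2 kb with quartiles of 5.67 and 41.1 kb, compared with a median of 18.1 kb at distal co-bound sites. These distances were limited by the rule. The members closest to its limit lay 1004, 1013 and 1015 bp from a TSS, and the promoter sites just inside it 991, 991 and 961 bp. Chromosome 4 held the most members (76) and X the fewest (8).

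By selection no PROX1 peak of the deposited list covered a member, and the nearest PROX1 peaks lay at widely different distances. PROX1 signal below the threshold of that list was not measured here. Of the members, 0 had a base covered by a PROX1 peak, while every co-bound peak was covered over 100% of its length, since both lists carry it with the same position. A PROX1 peak was centred within 1 kb of 133 members (14.0%) and within 10 kb of 472 (49.6%). The median distance was 10.3 kb. These values describe the selection and were not tested. Few members lay in groups: 91 had another member within 10 kb and 25 within 1 kb.

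HNF4α was found at far fewer of the distal HDAC3-only sites than of the co-bound sites. A peak was counted as covered when a single HNF4α peak spanned at least 50% of it. This held for 138 members, a share of 14.5% (95% CI 12.4 to 16.9), against 58.6% of all HDAC3 peaks. The share was 61.9% (95% CI 61.2 to 62.6) at distal co-bound sites, which gives a difference of -47.4 percentage points (95% CI -49.6 to -44.9, chi-square p = 1e-185), and the members were lower on 20 of 20 chromosomes. Against distal PROX1-only sites, of which 37.2% were covered, the difference was -22.7 percentage points (95% CI -25.1 to -20.1, chi-square p = 2e-43), again with the members lower on 20 chromosomes. Promoter HDAC3-only sites had a share of 12.1% (95% CI 8.66 to 16.7). The difference of 2.39 percentage points between members and promoter sites had an interval of -2.64 to 6.57 and did not pass the test (chi-square p = 0.33). Its sign turned with a looser overlap rule and with the stronger HNF4α peaks.

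The surroundings of the members also held fewer HNF4α peaks than those of distal co-bound sites. An HNF4α peak was centred within 1 kb of 28.9% of members and 74.1% of distal co-bound sites. Within 10 kb the shares were 57.2% (95% CI 54.1 to 60.4) and 88.3% (95% CI 87.8 to 88.7), a difference of -31.0 percentage points (95% CI -34.2 to -27.9, chi-square p = 2.2e-166) that was negative on all 20 chromosomes. Within 100 kb, 90.8% of members and 97.7% of distal co-bound sites had one. The median distance was 5.76 kb for members, 1.08 kb for distal PROX1-only and 0.0365 kb for distal co-bound sites. HDAC3-only sites at promoters were covered by an HNF4α peak in 12.1%, against 14.5% of members, but 67.6% of them (95% CI 61.6 to 73.0) had one within 10 kb, at a median distance of 3.17 kb.

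**Figure D1:**
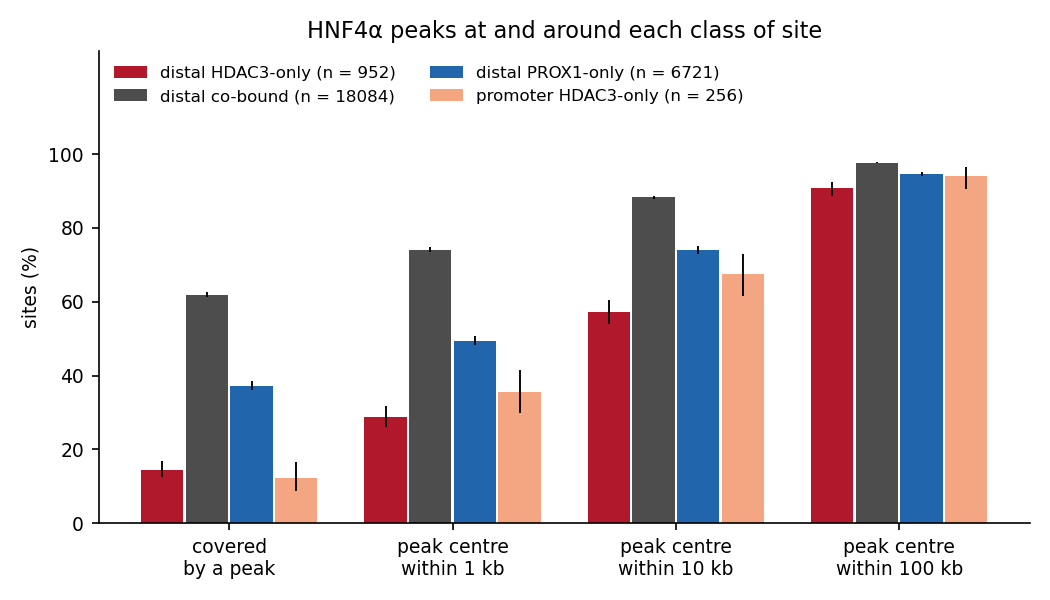
Percentage of sites in each class (y axis) covered by an HNF4α peak or with an HNF4α peak centre within 1, 10 or 100 kb (x axis). Bars give the share and error bars the 95% Wilson interval over peaks. The distal HDAC3-only bars rise from 14.5% to 90.8% and lie below those of the distal co-bound sites at each step.

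The HNF4α peaks that did cover members had lower scores than those at co-bound sites, which is given as a description. Their scores, the read measure that the HOMER peak caller wrote, ranged from 20.3 to 78.7 with a median of 31.1 and quartiles of 25.1 and 40.5. At covered distal co-bound sites the median was 52.3 and the highest score 160.2, and over the whole HNF4α list the median was 41.9. Of the 138 covered members, 32 (23.2%) had a score above the median of the list, compared with 65.0% of covered distal co-bound sites and 41.1% of covered distal PROX1-only sites. The highest score, 78.7, belonged to a site between genes at chr12:112672690-112672889, 7.89 kb upstream of Tnfaip2, a gene induced by tumour necrosis factor. It was followed by sites 6.72 kb upstream of Fam120b (score 78.2), 35.2 kb downstream of the Snx5 TSS (71.6), in an intron of Arid5b (68.8) and 6.86 kb upstream of 1110049F12Rik (68.8). Snx5 encodes a sorting nexin of the endosome and Arid5b a DNA-binding protein that takes part in fat cell differentiation. Of these 5 sites, those of Tnfaip2 and 1110049F12Rik held an HNF4α consensus in the window, and that of 1110049F12Rik also held a DR2.

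Of the 29 motifs searched, the DR2 had the largest excess at the members over distal co-bound sites in percentage points. With 1 mismatch allowed over both half-sites, it was found in 96 of 952 windows, or 10.1% (95% CI 8.33 to 12.2), against 2.72% of all HDAC3 peaks. At distal co-bound sites the share was 2.41% and at distal PROX1-only sites 0.982%. The differences were 7.67 percentage points (95% CI 5.90 to 9.76, chi-square p = 1.6e-44, higher on 18 of 20 chromosomes) and 9.10 percentage points (95% CI 7.33 to 11.2, chi-square p = 1.1e-74, higher on 19 chromosomes and lower on 0). Promoter HDAC3-only windows held it in 3.91%, a difference of 6.18 percentage points (95% CI 2.59 to 8.91, chi-square p = 0.0019). Windows placed 2 kb to either side of the members held a DR2 in 0.63%, so that the members' share was 16.0 times that of their surroundings, while that of distal co-bound sites was 4.32 times theirs. Without a mismatch, the element was present in 29 members (3.05%) and in 33 distal co-bound sites (0.182%).

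The position of the element within the peak is given as a description. The share expected for an element placed at random was not computed. In the 96 windows with a DR2, its centre lay a median of 29 bp from the centre of the peak, and in 74 of them (77.1%) within 50 bp. At the 436 distal co-bound windows with a DR2, the median was 35.5 bp and the share within 50 bp 64%. The second base of the spacer was a T in 55 of the 96 elements (57.3%), compared with 27.5% at co-bound sites, and the first base was an A in 8.33%, compared with 22.2%. The base 6 positions before the first half-site was a G in 53.1%, compared with 34.6%. Of the windows with a DR2, 16 of the 96 and 9 of the 436 held a tandem repeat. The base shares were not computed without these windows, and their differences were not tested. Members with a DR2 lay a median of 13.6 kb from a TSS and those without 16.4 kb.

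Tandem repeats were more frequent among the members, and part of the DR2s sat in them. A window was counted as holding one when a stretch of 30 bp equalled, at 90% of its bases or more, the sequence a unit of at most 50 bp further on. This was the case for 64 members, a share of 6.72% (95% CI 5.30 to 8.49), against 2.89% of all HDAC3 peaks and 2.68% of distal co-bound sites (difference 4.05 percentage points, 95% CI 2.60 to 5.83, chi-square p = 3.4e-13, higher on 17 of 20 chromosomes). The measure was chosen after the sequences had been seen. Of the 96 members with a DR2, 16 (16.7%) held a tandem repeat, 9 of them with a unit of 8 bp. Of the 436 distal co-bound sites with a DR2, 9 (2.06%) held one and 0 had a unit of 8 bp. Of the 29 members with an exact DR2, 10 held a tandem repeat. Outside tandem repeats a DR2 was present in 80 of 888 members (9.01%) and in 2.43% of distal co-bound windows, so that the difference was 6.58 percentage points (chi-square p = 1e-31). The number of places in the genome to which the reads of such windows align was not tested.

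Other arrangements of 2 half-sites were measured in the same way, with 0 to 8 bases between direct repeats (DR0 to DR8) and 0 to 3 between inverted ones (IR0 to IR3). Compared with distal co-bound sites, 6 of 13 arrangements were more frequent at the members after Benjamini-Hochberg adjustment, and 0 were less frequent. These were the DR2 (adjusted chi-square p = 2e-43), DR4 (9.5e-08), DR5 (5.3e-05), DR7 (9.9e-05), IR0 (0.0033) and IR2 (0.0067). The DR4, which thyroid hormone and oxysterol receptors bind with the retinoid X receptor, was present in 4.52% of members and 1.87% of distal co-bound sites, with 2.01% of all HDAC3 peaks as the background. The DR5, known from retinoic acid receptors, was present in 3.78% and 1.80% (all HDAC3 peaks 1.85%), and the DR7 in 3.26% and 1.52% (1.56%). The IR0 was found in 1.68% and 0.735% (0.772%) and the IR2 in 1.26% and 0.525% (0.574%). These rest on 16 and 12 members. The IR0 was higher at the members on 11 chromosomes and lower on 9, and the IR2 higher on 10 and lower on 10. The DR1, the arrangement of HNF4α and of the peroxisome proliferator-activated receptors, was present in 5.78% of members and 4.81% of distal co-bound sites. This difference did not pass the test (adjusted chi-square p = 0.28). Where no HNF4α peak covered the site, the DR1 was present in 5.65% of members and 2.98% of distal co-bound sites (unadjusted chi-square p = 4.9e-05). Where one did, the shares were 6.52% and 5.94% (unadjusted chi-square p = 0.77).

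Exact half-sites, counted whether paired or not, were denser at the members. The count includes the half-sites of DR2s and tandem repeats and was not made without them. A window of the members held 1.01 exact half-sites on average, compared with 0.631 at distal co-bound and 0.394 at distal PROX1-only sites, and 255 members (26.8%) held 2 or more, compared with 13.0% of distal co-bound sites. When windows with a DR2 were left out, the DR4 remained more frequent at the members (4.56% against 1.86%, chi-square p = 3.2e-08), as did the DR5 (3.97% against 1.79%, p = 4.8e-06), the IR0 (1.75% against 0.714%, p = 0.00065) and the IR2 (1.40% against 0.516%, p = 0.00067). The DR7 did not pass the test there (2.10% against 1.41%, chi-square p = 0.094), and 13 of the 31 members with a DR7 also held a DR2. These p-values were not adjusted.

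**Figure D2:**
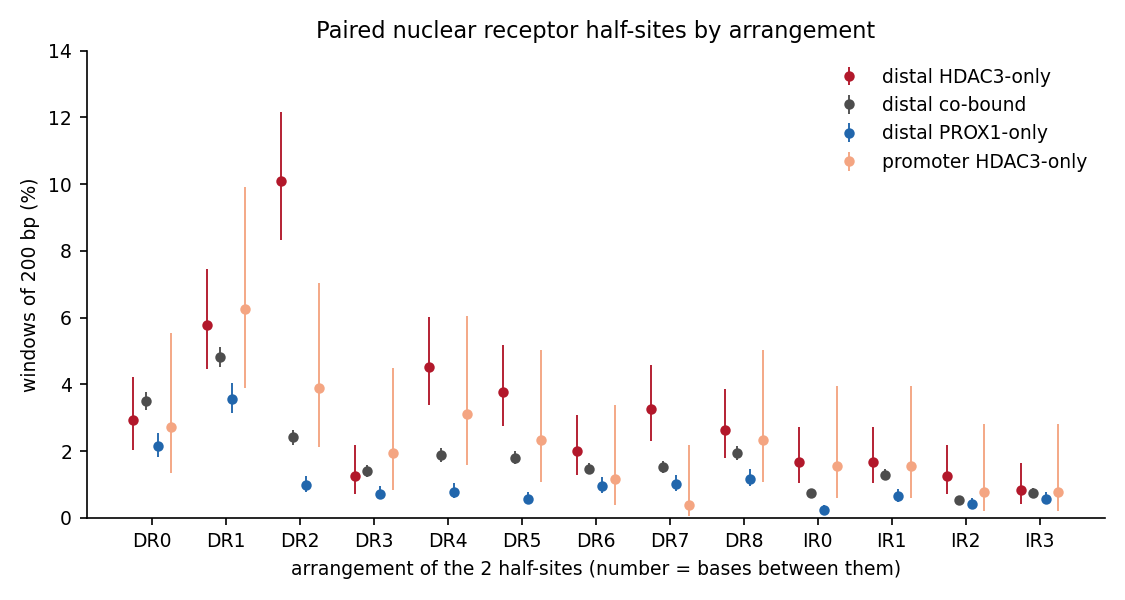
Percentage of 200 bp windows (y axis) that hold 2 half-sites in each arrangement (x axis; DR, same direction; IR, facing each other), with at most 1 mismatch, for the 4 classes. Points give the share and lines the 95% Wilson interval over peaks. The DR2 of distal HDAC3-only sites stands at 10.1%, and the next highest arrangement of these sites is the DR1 at 5.78%.

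Single ROREs showed the same direction as the DR2. The RORE was present in 41 members, or 4.31%, against 1.27% of all HDAC3 peaks. At distal co-bound sites its share was 1.12%, which gives a difference of 3.18 percentage points (adjusted chi-square p = 2.1e-16, over 29 motifs, higher on 18 of 20 chromosomes), and at distal PROX1-only sites it was 0.312%. The 2 kb flanks of the members held it in 0.263%. A DR2 and a RORE occurred together in 10 members, in 8 of them as overlapping matches, and either was present in 127 members (13.3%), compared with 3.48% of distal co-bound and 5.47% of promoter HDAC3-only sites. Besides those of Arntl and Npas2, the members of Nr5a2, a nuclear receptor of bile acid metabolism, and of Pygl, the liver glycogen phosphorylase, held a RORE.

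The HNF4α, C/EBP and ONECUT motifs were less frequent at the members than at distal co-bound sites, while the FOXA motif (6.93% against 8.33%) and the HNF1 motif (3.68% against 4.72%) did not pass the test (adjusted chi-square p = 0.25 for each). In a panel of 29 motifs, 12 differed from distal co-bound sites after adjustment, 6 of them higher and 6 lower at the members. The HNF4α consensus, with 2 mismatches allowed, was present in 216 members (22.7%, 95% CI 20.1 to 25.5), against 30.7% of all HDAC3 peaks and 31.3% of distal co-bound sites (adjusted chi-square p = 9e-08). The members' share was still above the 9.14% of their flanks. Among the 480 members with no PROX1 peak centre within 10 kb the share of the consensus was 26.7%. Its difference to distal co-bound sites was then -4.62 percentage points (unadjusted chi-square p = 0.031, lower on 14 chromosomes and higher on 6). The stricter form CAAAGTCCA, which overlaps the consensus and is specific to HNF4α among nuclear receptors, was found in 7 members (0.735%) and in 2.88% of distal co-bound sites (all HDAC3 peaks 2.72%, adjusted chi-square p = 0.00032). C/EBP matches (TTGCNNAA) were present in 133 members (14.0%), against 25.4% of all HDAC3 peaks and 26.3% of distal co-bound sites (adjusted chi-square p = 2.1e-16), and ONECUT matches (TATTGAT), bound by the liver factor HNF6, in 31 members (3.26%), against 8.02% of all HDAC3 peaks and 8.71% of distal co-bound sites (adjusted chi-square p = 2.1e-08). The C/EBP share was lower on 18 and the ONECUT share on 19 of 20 chromosomes.

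A pair of motifs of hormone and clock regulation was also lower. The D-box (TTANGTAA), the element of the clock output factors DBP, TEF and HLF and of their repressor NFIL3, was present in 2.63% of members and 4.91% of distal co-bound sites (all HDAC3 peaks 4.66%, adjusted chi-square p = 0.0036). The glucocorticoid response element (GNACA and TGTNC with 3 bases between) was found in 5 members (0.525%) and in 1.66% of distal co-bound sites (all HDAC3 peaks 1.55%, adjusted chi-square p = 0.016). The E-box (CACGTG), through which BMAL1 and CLOCK act, was present in 4.62% of members and 3.98% of distal co-bound sites, a difference of 0.64 percentage points with an interval of -0.56 to 2.19 that did not pass the test (adjusted chi-square p = 0.43).

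Besides the nuclear receptor elements, the CTCF core and ETS family motifs were higher at the members. The CTCF core (CC, 3 bases of any kind, AGG, 1 base of any kind, GGC), the element of the factor that delimits chromatin loops, was present in 22 members (2.31%), against 0.692% of all HDAC3 peaks. The share was 0.542% at distal co-bound sites (adjusted chi-square p = 1.3e-10, higher on 15 of 20 chromosomes) and 0.744% at distal PROX1-only sites. Of these 22 members, 0 held a DR2 and 4 were covered by an HNF4α peak. The ETS motif (CCGGAAG) was present in 1.79% of members and 0.785% of distal co-bound sites (all HDAC3 peaks 0.984%, adjusted chi-square p = 0.003) and the PU.1 motif (GAGGAAGT), of a factor of myeloid and B cells, in 21 members (2.21%), against 1.17% of all HDAC3 peaks and 1.08% of distal co-bound sites (adjusted chi-square p = 0.0036). The shares of ETS and PU.1 matches in the 2 kb flanks of the members were 0.945% and 0.788%. By chromosome, the ETS share was higher at the members on 11 and lower on 8, and the PU.1 share higher on 12 and lower on 8. AP-1, FOXA, HNF1, GATA, STAT, NFI, TEAD and SOX matches were among the 17 motifs that did not pass the test.

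**Figure D3:**
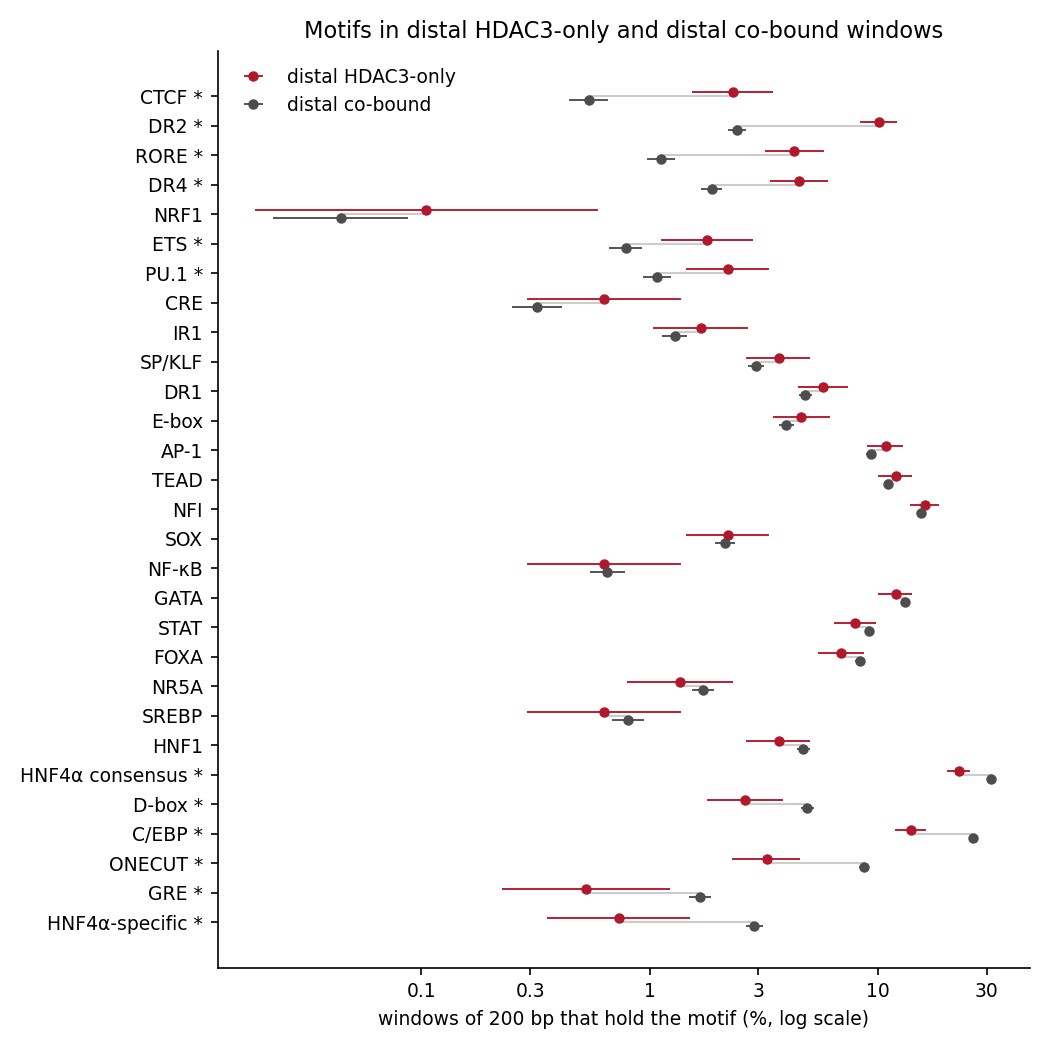
Percentage of 200 bp windows that hold each of 29 motifs (x axis, log scale) in distal HDAC3-only and distal co-bound sites, ordered from the highest to the lowest ratio of the former to the latter. Points give the share, lines the 95% Wilson interval over peaks, and asterisks an adjusted chi-square p under 0.05. CTCF, DR2 and RORE stand at the top and the HNF4α-specific form at the bottom.

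Members and HDAC3-only promoters differed in other motifs. After adjustment over 29 motifs, the DR2 was higher at the members (adjusted chi-square p = 0.014), and the E-box (4.62% against 10.5%, adjusted chi-square p = 0.0033), the ETS motif (1.79% against 6.64%, adjusted chi-square p = 0.00044) and the SP/KLF motif (GGGCGG, 3.68% against 14.8%, adjusted chi-square p = 8.1e-10) were lower. CpG-rich windows, with over 50% G and C and a CpG ratio above 0.6, made up 16.8% of the promoter sites, 1.58% of the members and 0.464% of distal co-bound sites. The difference of 1.11 percentage points between members and distal co-bound sites (95% CI 0.48 to 2.12, chi-square p = 3.4e-06) rested on 15 members. It no longer passed the test, at 0.58 percentage points (chi-square p = 0.071), among the 480 members with no PROX1 peak centre within 10 kb. The median share of G and C was 48.5% in the members, 46.5% at distal co-bound sites and 51.8% at HDAC3-only promoters.

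Within the members, an HNF4α peak went with its own motif. Of the 138 members covered by an HNF4α peak, 74 held the HNF4α consensus (53.6%, 95% CI 45.3 to 61.7), as did 142 of the 814 others (17.4%, 95% CI 15.0 to 20.2), a difference of 36.2 percentage points (95% CI 27.4 to 44.7, chi-square p = 6.4e-21, higher on 19 of 20 chromosomes). Covered distal co-bound sites held it in 41.2%, and the difference of 12.4 percentage points to the covered members had an unadjusted chi-square p of 0.0032. A DR2 was present in 7.25% of covered and 10.6% of other members, and the difference of -3.32 percentage points (95% CI -7.31 to 2.58) did not pass the test (chi-square p = 0.23). Its sign turned when 2 mismatches were allowed. Of the 814 members without HNF4α, 10.6% held a DR2, compared with 2.51% of the 6885 distal co-bound sites without HNF4α (chi-square p = 2e-33), so that the DR2 was more frequent also between sites that both lacked HNF4α. The same held for C/EBP in the other direction, with 14.5% against 24.3% (chi-square p = 4.1e-10). For the HNF4α consensus the shares without HNF4α were 17.4% and 15.1%, and their difference of 2.30 percentage points did not pass the test (chi-square p = 0.086).

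The motifs described most fully here were each held by a minority of members. Of the DR2, RORE, HNF4α consensus, C/EBP and CTCF motifs, 531 members (55.8%) held none, 342 (35.9%) held 1 and 79 (8.30%) more than 1. At distal co-bound sites 47.4% held none. Across chromosomes, HNF4α coverage of the members lay between 3.12% and 25%, and their DR2 share between 0% (X, 8 members) and 20% (chromosome 14, 30 members).

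**Figure D4:**
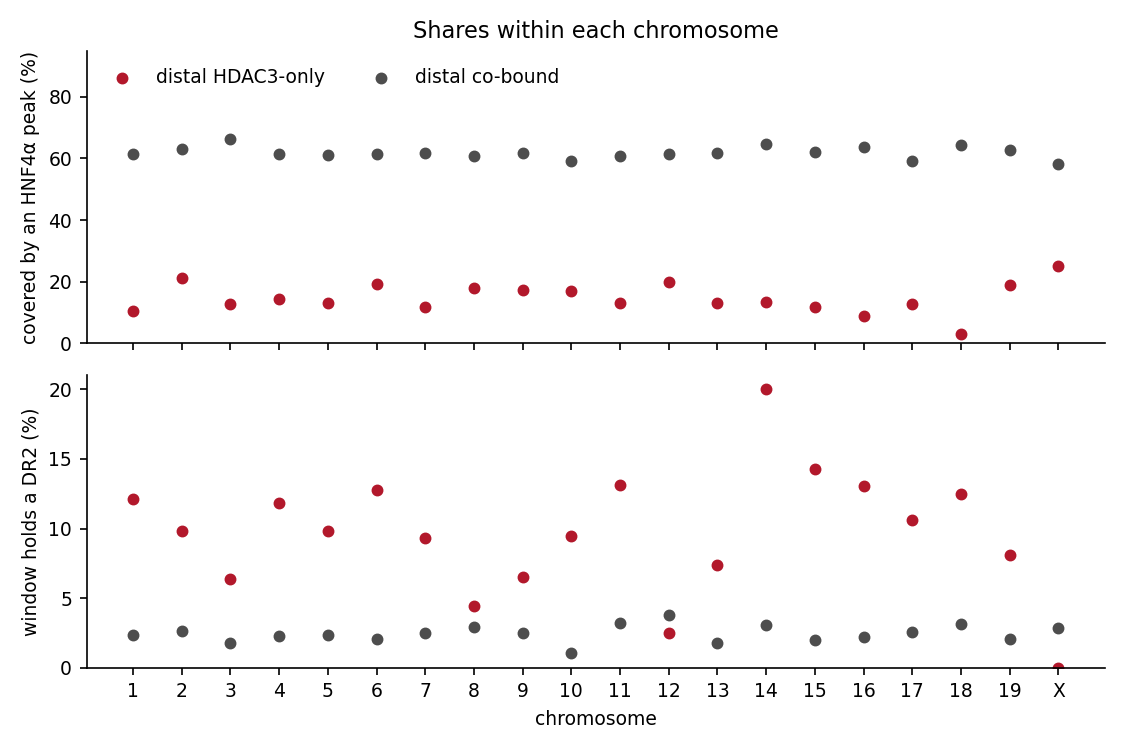
Percentage of sites covered by an HNF4α peak (upper panel) and percentage of windows with a DR2 (lower panel) for each chromosome (x axis), in distal HDAC3-only (red) and distal co-bound sites (grey). HNF4α coverage of the members is lower on each of the 20 chromosomes, and the DR2 share is higher on 18, the exceptions being 12 and X.

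The members were assigned to the gene with the nearest TSS when it lay within 100 kb, which 858 of them had. They fell to 759 protein-coding genes, or 3.41% of the 22238 annotated, and 518 of these genes (68.2%) were also the nearest gene of a distal co-bound site. An assignment by distance does not show that a site acts on the gene. Most genes had 1 member, 70 had 2, and 14 had 3 or more. Gadd45g, a stress-inducible gene of the DNA damage response, had the most, with 4 members between genes at 1.03 to 2.96 kb from its TSS, of which 0 held a DR2, a RORE or an HNF4α peak and 1 held a CTCF core. The same gene had 9 distal co-bound sites. The genes with 3 members included Ephx1 (microsomal epoxide hydrolase), Tnfaip2, Nos1ap, Pde4d (a cAMP phosphodiesterase), Pvrl1 (the adhesion molecule nectin-1), Cblb (a ubiquitin ligase of receptor signalling), Flrt1 and 6430527G18Rik. At Ephx1 all 3 members were intronic, 1 was covered by an HNF4α peak (score 30.6) and held a DR4. At Cblb the member 15.4 kb upstream held both a RORE and a D-box. At Flrt1, 2 of 3 members, in introns of Macrod1, were covered by HNF4α peaks with scores of 22.6 and 40.1 and both held the HNF4α consensus.

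Nuclear receptor genes were among the genes near members. Of 37 nuclear receptor genes, 5 (13.5%) were the nearest gene of a member, against 3.41% of all protein-coding genes, while 62.2% were the nearest gene of a distal co-bound site, against 25.3% of all protein-coding genes. They were Nr2f6 with 2 sites, Rxra, the common partner of many receptors, Nr5a2, Ppard and Nr3c1, the glucocorticoid receptor, with 1 each. Among genes of the HDAC3 and NCoR complex, Tbl1xr1, which encodes a subunit of that complex, had 1 intronic member, which held an HNF4α consensus and was not covered by an HNF4α peak. Of 18 hepatocyte transcription factor genes, 1 was the nearest gene of a member, Cebpb, with a site 3.57 kb upstream in an intron of Tmem189 and 0 distal co-bound sites of its own. By the same assignment, Tmem189 was the nearest gene of 15 distal co-bound sites. For 17 of the 18 hepatocyte transcription factor genes a distal co-bound site was assigned.

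In metabolism, genes of fatty acid oxidation and ketogenesis had members at 5 of 26 (19.2%), against 3.41% of all protein-coding genes. A distal co-bound site was assigned to 76.9% of these 26 genes, against 25.3% of all protein-coding genes. Ehhadh, a peroxisomal enzyme of β-oxidation, had 2, of which the one 2.80 kb upstream held a DR2, an HNF4α consensus and a C/EBP match. Bdh1 and Cpt2 had 1 each, as had Ppargc1a, a coactivator of the fasting response. Rxra and Ppargc1a were named after their values were seen. Lipogenesis and triglyceride synthesis had 1 of 29 genes (3.45%, near the share of all genes), Me1 (malic enzyme). Lipid droplets and lipolysis had 1 of 19 (5.26%), Plin2, a lipid droplet coat protein, with 2 sites between genes. Of 27 genes of cholesterol and bile acid metabolism found in the annotation, Abca1, Abcg5 and Insig1 had 1 member each (11.1%). Of 19 genes of gluconeogenesis and glycolysis, Pcx and Pygl had 1 each (10.5%). Cytochrome P450 genes had 3 of 25, namely Cyp26a1 (2 sites), which degrades retinoic acid, Cyp2c29 and Por. Distal co-bound sites were assigned to 86.2% of the lipogenesis and triglyceride genes and 57.9% of the lipid droplet and lipolysis genes. For the cholesterol, gluconeogenesis and cytochrome P450 lists the shares were 81.5%, 84.2% and 72.0%.

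Among 25 genes of insulin and growth factor signalling, 6 had a member (24.0%), and 84.0% had a distal co-bound site, against 25.3% of all protein-coding genes. Egfr had 2 intronic sites, 1 of which held a DR4. Angptl4, Gcgr (the glucagon receptor) and Gm6484 (Angptl8) were among those with 1 each. Plasma proteins had 0 of 25 genes and ribosomal proteins 0 of 44, counts too small to read against the 3.41% of all protein-coding genes that had a member. Distal co-bound sites were assigned to 84.0% and 13.6% of these genes. Of the markers of other liver cells, Kupffer cells, cholangiocytes and lymphocytes had 0 of 8 each, endothelial cells 1 of 8 (Lyve1, with a coding exon site) and stellate cells 1 of 8 (Pdgfrb, with a DR2 site). The lists are small, were chosen with earlier results of these data known, and were not tested.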

How the data were processed

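Liver ChIP-seq libraries were mapped by the authors with Bowtie 0.12.7 to mm9, duplicates were removed, replicates were pooled and peaks were called with HOMER with IgG as input (thresholds per the study's methods: HDAC3 1.5 rpm, PROX1 and HNF4α 2 rpm). The deposited lists give positions, 200 bp wide for HDAC3 and PROX1, and, for HNF4α, the authors' HOMER score. They hold no read count per library, so the depth and the spread between livers are unknown.

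The members, gene lists and tests were chosen with earlier results of these data known. Peak centres were set against GENCODE vM1 on NCBIM37, which is mm9 (0 chromosomes with a peak beyond the end), and a TSS was the start of any transcript of a protein-coding gene. Windows of 200 bp were searched on both strands, with 1 mismatch for repeats, 2 for the HNF4α consensus, HNF1 and NFI and 0 otherwise. Two-sided Pearson's chi-square tests with no continuity correction compared the shares, with 95% Wilson and Newcombe intervals, and panels were adjusted by Benjamini-Hochberg at 0.05. Named were members near clock genes, the first 10 exact DR2s, the 5 highest HNF4α scores, genes with 3 or more members (at most 12) and up to 4 genes per other list. Of 365 listed genes, 363 were found, 4 under older symbols. The code was tested on simulated data. Tools were samtools 1.23.1, scipy 1.17.1 and pysam 0.24.0 in Python 3.11.15. The settings varied were the TSS distance, chromosomes, neighbouring peaks, PROX1 distance, base composition, HNF4α overlap and score, window, mismatches and continuity correction. RNA-seq, H3K27Ac and knockout libraries were not analysed here. Some genes nearest to members are not reported here.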

Additional observations from a re-analysis of the deposited data

How the results depend on the processing

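Of 180 recomputed values over 17 results, 175 kept their direction and their side of the threshold, or for counts stayed within 1.5 times. The difference in HNF4α coverage between members and HDAC3-only promoters, which did not pass the test, turned to -1.09 percentage points with an overlap of 1 bp and to -2.11 with HNF4α peaks above the median score. The DR2 difference between members with and without HNF4α turned to 0.386 percentage points with 2 mismatches, and the intronic difference to -0.245 among members with no PROX1 peak centre within 10 kb. The CpG-rich difference dropped below the threshold among the same members, at 0.577 percentage points. The causes were not tested. The HNF4α difference to distal co-bound sites ranged from -48.4 to -28.1 and the DR2 difference from 2.86 to 12.3 percentage points, passing the test under each of the 11 alternatives. Between 9 and 12 of 29 motifs and between 4 and 9 of 13 arrangements differed. Of the alternatives, those on tandem repeats and on protein-coding transcripts only were chosen after seeing the data. No paired analysis was possible because each list pools its libraries, and replicates could not be left out for the same reason. The lists give no signal per HDAC3 peak, so whether members are weaker HDAC3 peaks than co-bound sites was not tested.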

Other observations

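The order of the HDAC3-only peaks in the deposited list was not by position: 2.73% of them were followed by a peak further along the same chromosome. What the order stands for is not given in the sources used here. The HNF4α list, which carries a score, runs from the highest to the lowest score. When all HDAC3-only peaks were split into 4 equal parts in the order of the list, the parts held 235, 241, 244 and 232 distal sites. A DR2 was present in 17.9% of those in the first part, 9.96% in the second, 7.38% in the third and 5.17% in the fourth. The RORE shares were 7.23%, 4.15%, 4.51% and 1.29%, and the exact DR2s numbered 12, 7, 5 and 5. The CTCF core went the other way, with 0.426%, 2.07%, 3.28% and 3.45%. HNF4α coverage was 15.7%, 15.8%, 16.8% and 9.48%, and C/EBP matches were present in 16.6%, 15.4%, 12.3% and 11.6%. The parts were formed after the data had been seen, and their differences were not tested.

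By distance from a TSS, a DR2 was present in 11.5% of the 217 members at 1 to 5 kb, 9.29% of the 323 at 5 to 20 kb, 8.81% of the 318 at 20 to 100 kb and 13.8% of the 94 further away. HNF4α coverage over the same steps was 15.2%, 15.2%, 14.2% and 11.7%.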
